A study of Mus musculus with 8 samples.

Results

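Long intergenic non-coding RNA (lincRNA) genes were examined for 5-hydroxymethylcytosine (5hmC) at their promoters and along their bodies. They were all genes that the GENCODE M1 annotation of the mouse genome (NCBIM37, also called mm9) types as lincRNA on the nuclear chromosomes, 1273 of 37273 annotated genes, and they were set beside the 22367 protein-coding genes. 5hmC was mapped by GLIB-Seq, in which glucosylation, periodate oxidation and biotinylation label the modified base so that DNA fragments carrying it can be captured and sequenced. The deposited data hold 1 list of enriched regions (peaks) for each of 6 libraries. Embryonic stem cells (ESCs) were of the mouse line E14, and mouse embryonic fibroblasts (MEFs) came from C57BL/6 embryos labelled as embryonic day 11, a stage on which the sample label and the study's methods differ. Brain and liver were bulk tissues of adult C57BL/6 mice, 8 weeks old. The last 2 libraries were E14 cells that received a short hairpin RNA, directed at GFP in the control (shGFP) and at Suz12 in the knockdown (shSuz12), followed by puromycin selection. Which of the study's Suz12 hairpins was used for the GLIB-Seq library was not given in the sources used here. RNA-Seq libraries of these shGFP and shSuz12 cells were not analysed here, so nothing below says whether a lincRNA was transcribed, and the labelled tissues could not be checked against marker genes.

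5hmC arises when Tet enzymes oxidise 5-methylcytosine, mostly at CpG dinucleotides, and it can persist as a mark or be a step towards the loss of methylation. In many cell types CpG-rich promoters are unmethylated and hold little 5hmC at the transcription start site (TSS), whereas bodies of transcribed genes often carry it. lincRNA genes are spliced like coding genes, give transcripts without a long open reading frame, and many start close to the promoter of a coding gene, on the opposite strand. Suz12 is a subunit of Polycomb repressive complex 2 (PRC2), which methylates histone H3 at lysine 27 on silent developmental genes.

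The lincRNA genes were shorter than coding genes, with a median span of 8448 bp against 15427 bp, and had a median of 3 exon blocks against 7. Their promoters had a similar CpG content, with a median of 62 CpGs in the 2000 bp around the TSS against 61. Of the 1273 TSSs, 512 lay within 1 kb of a coding TSS, and 301 of these pointed away from it (divergent). At the other extreme, 234 lincRNA genes were over 5 kb from every coding gene. A peak in a window shared by 2 genes counts for both, since a mark on DNA cannot be assigned to one of them.

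The windows of 300 bases around the TSS (150 before it and the rest from the TSS onwards) of 6 lincRNA genes are printed from the NCBIM37 reference, 5′ to 3′ in the direction of the gene, with each CpG in capitals. Each window holds the upstream flank and the start of the first exon. They are shown because they carried the patterns described further on, namely promoter peaks only in untransfected and shGFP ESCs (Xist), a peak lost in shSuz12 (1500012K07Rik), a promoter peak in 1 of the 4 cell types (Gm16737 in ESCs, Gm805 in MEFs, Gm12541 in brain) and no peak in any library (Gas5).
Xist (chrX:100678407-100678706, minus strand): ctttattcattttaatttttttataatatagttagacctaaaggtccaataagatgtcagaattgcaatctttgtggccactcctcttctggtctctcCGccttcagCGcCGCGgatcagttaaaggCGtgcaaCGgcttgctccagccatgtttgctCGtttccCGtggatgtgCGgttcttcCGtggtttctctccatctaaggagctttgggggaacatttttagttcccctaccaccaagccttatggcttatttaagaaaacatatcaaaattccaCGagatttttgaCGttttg
1500012K07Rik (chr7:82453438-82453737, plus strand): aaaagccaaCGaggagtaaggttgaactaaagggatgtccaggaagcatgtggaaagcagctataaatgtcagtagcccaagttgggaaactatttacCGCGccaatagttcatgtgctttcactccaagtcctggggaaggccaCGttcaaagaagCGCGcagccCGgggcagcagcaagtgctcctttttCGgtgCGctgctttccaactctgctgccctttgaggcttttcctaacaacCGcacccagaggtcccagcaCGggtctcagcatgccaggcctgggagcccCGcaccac
Gm16737 (chr7:25422786-25423085, minus strand): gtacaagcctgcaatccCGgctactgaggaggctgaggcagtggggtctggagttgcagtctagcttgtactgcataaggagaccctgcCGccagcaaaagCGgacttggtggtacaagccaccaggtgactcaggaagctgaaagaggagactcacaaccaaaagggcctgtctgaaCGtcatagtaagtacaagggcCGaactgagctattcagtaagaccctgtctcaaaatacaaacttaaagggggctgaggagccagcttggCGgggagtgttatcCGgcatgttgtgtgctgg
Gm805 (chr12:87510141-87510440, plus strand): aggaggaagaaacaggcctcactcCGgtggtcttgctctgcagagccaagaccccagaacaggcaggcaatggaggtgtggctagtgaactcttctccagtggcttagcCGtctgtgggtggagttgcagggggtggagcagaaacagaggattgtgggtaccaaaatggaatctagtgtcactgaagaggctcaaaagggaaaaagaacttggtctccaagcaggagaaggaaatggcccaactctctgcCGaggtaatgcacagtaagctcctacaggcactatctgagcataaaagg
Gm12541 (chr3:37248513-37248812, minus strand): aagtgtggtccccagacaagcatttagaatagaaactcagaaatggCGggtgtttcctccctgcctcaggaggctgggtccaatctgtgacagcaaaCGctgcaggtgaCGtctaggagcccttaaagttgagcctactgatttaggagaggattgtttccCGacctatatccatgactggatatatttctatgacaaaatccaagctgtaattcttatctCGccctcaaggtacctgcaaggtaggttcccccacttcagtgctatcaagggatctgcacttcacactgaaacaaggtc
Gas5 (chr1:162964403-162964702, plus strand): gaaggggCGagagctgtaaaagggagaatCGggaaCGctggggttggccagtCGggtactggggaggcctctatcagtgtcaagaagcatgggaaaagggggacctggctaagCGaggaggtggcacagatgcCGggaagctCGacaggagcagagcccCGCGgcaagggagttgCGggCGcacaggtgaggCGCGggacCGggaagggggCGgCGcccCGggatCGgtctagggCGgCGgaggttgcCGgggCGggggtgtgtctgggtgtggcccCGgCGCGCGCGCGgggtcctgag
The letters CG were searched on 1 strand, which finds them on both. The Gas5 window held 28 CpGs, Xist and 1500012K07Rik had 12 each, and the others had 3 to 7. The Gm805 window, with 3 CpGs, lay wholly under a peak in MEFs and under none elsewhere. At least 1 CpG was present in 97.6% of all such lincRNA windows and in 95.9% of coding ones, so most windows of both types held one.

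A 5hmC peak overlapped the promoter (TSS ± 1 kb, at least 1 bp) of 514 lincRNA genes in ESCs, which is 40.4% (exact 95% interval 37.7 to 43.1), against 31.9% of coding promoters and 29.0% of all annotated promoters. In MEFs the share was 38.5% of lincRNA promoters (490) against 30.1% of coding and 26.7% of all promoters. In liver it was 35.2% (448) against 29.4% and 25.0%. Brain had the lowest share of the 4 cell types, 26.9% (343) against 20.0% and 19.2%. Among the transfected ESCs, shGFP had a peak at 37.6% of lincRNA promoters (479) against 27.1% of coding and 24.2% of all promoters, and shSuz12 at 27.7% (352) against 21.4% and 19.7%. In each of the 6 lists lincRNA promoters thus had a peak 1.20 to 1.39 times as often as coding promoters, and the lincRNA interval did not reach the coding share. These intervals, here and below, cover counting error only. They hold no spread between replicates, since each condition had 1 library, and the lists did not share a threshold. The lowest peak score was 30 in MEFs and brain, 30.34 in shSuz12, 50.02 in shGFP and 80 in liver and ESCs. With the same lowest score of 80 in all lists, the lincRNA and coding shares became 17.7% and 12% in MEFs, 9.74% and 5.45% in brain, 27.8% and 19% in shGFP, and 7.93% and 5.07% in shSuz12, while those of ESCs and liver did not change. The order of the libraries changed with this setting, with shGFP then above MEFs, but lincRNA promoters were above coding promoters in all 6.

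The bp covered gave the same order between the gene types. Peaks lay over 16.8% of the bp of lincRNA promoters in ESCs, 14.5% in MEFs, 14.4% in liver and 10.8% in brain, against 13%, 9.88%, 10% and 6.62% for coding promoters. In shGFP and shSuz12 they lay over 15.5% and 7.82% against 11.0% and 5.95%. A lincRNA promoter with a peak typically had less than the whole window covered, with a median of 658 to 777 bp in 5 libraries and 524 bp in shSuz12, whose peaks were also the narrowest (median 564 bp over the whole list). Windows covered over all 2000 bp were few, from 1 in shSuz12 to 12 in ESCs. Peaks at lincRNA promoters scored about as high as those at coding promoters, or somewhat higher. Their median score was 224 against 226 in ESCs, 207 against 193 in liver, 69.2 against 62.0 in MEFs and 59.5 against 53.4 in brain, where a score is the peak caller's value and cannot be compared between lists.

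Across the libraries, 352 lincRNA promoters (27.7%) had no peak in any list, against 40.6% of coding and 46.5% of all promoters. At the other end, 63 lincRNA promoters (4.95%) had one in all 6, against 2.71% of coding and 2.62% of all promoters. Among the 4 cell types alone, 103 lincRNA promoters had a peak in all of them, and 120 had one only in ESCs, 103 only in MEFs, 78 only in liver and 29 only in brain. These are 8.09%, 9.43%, 8.09%, 6.13% and 2.28% of lincRNA promoters, against 4.96%, 7.13%, 5.45%, 5.24% and 2.14% of all annotated promoters, so the liver-only and brain-only shares were near the background. Of the 343 with a peak in brain, 67.3% also had one in ESCs, 60.6% in MEFs and 60.3% in liver. Of the 514 with a peak in ESCs, 53.5% had one in MEFs, 50.4% in liver and 44.9% in brain. Coding promoters were shared to nearly the same extent, with 64.9%, 58.4% and 57.2% of those of brain and 52.4%, 46.1% and 40.7% of those of ESCs in the same order. The untransfected ESCs and shGFP, both of line E14, shared most, with 74.7% of the ESC promoters also found in shGFP and 80.2% of the shGFP promoters also found in ESCs (68% and 80% for coding promoters).

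With all distances to coding TSSs pooled, the difference between lincRNA and coding promoters was largest at promoters with few CpGs. Promoters were put in 3 classes by their densest 500-bp window between 700 bp before and 200 bp after the TSS. High-CpG promoters (HCP) had a window with an observed-to-expected CpG ratio above 0.75 and a GC content above 55%, low-CpG promoters (LCP) had none above 0.48, and the rest were intermediate (ICP). The lincRNA promoters held 481 LCP, 352 ICP and 440 HCP. Among LCPs, 48.9% of lincRNA promoters had a peak in ESCs (44.3 to 53.4) against 30.3% of coding ones, 43.2% against 23.4% in MEFs, 33.1% against 17.8% in brain and 35.1% against 16.9% in liver. In shGFP and shSuz12 the LCP shares were 44.9% against 24.9% and 33.3% against 20.3%. Coding LCPs include 1418 olfactory and vomeronasal receptor genes, whose promoters rarely had a peak (2.61% in ESCs and 0.282% in liver). Without these the coding LCP shares rose to 35.5% in ESCs, 27.6% in MEFs, 20.9% in brain, 20.0% in liver, 29.2% in shGFP and 23.8% in shSuz12, still below the lower bound of the lincRNA interval in each library.

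Over all HCPs together the gene types could hardly be told apart. The lincRNA and coding shares were 28.9% and 27.2% in ESCs, 37.3% and 40.5% in liver, 31.1% and 34.6% in MEFs, and 18% and 19.7% in brain, and each of these coding shares lay within the lincRNA interval. In shSuz12 the shares were 16.1% and 17.1%, and of the 6 libraries only shGFP had a lincRNA interval (22.9 to 31.5) above the coding share of 22.4%. These shares pool unlike distances. Of the lincRNA HCPs 362 of 440, but of the coding ones 2215 of 7740, lay within 5 kb of another coding TSS. With near and far HCPs apart, as given below, lincRNA HCPs stood above coding HCPs in ESCs and shGFP. Within lincRNAs, the share with a peak was lower at HCPs than at LCPs in ESCs, MEFs, brain, shGFP and shSuz12, but in liver it was 35.1% at LCPs, 32.7% at ICPs and 37.3% at HCPs, with overlapping intervals. CpG counts were compared as well. In ESCs lincRNA promoters with a peak had a median of 50 CpGs within 1 kb of the TSS and those without had 70, in brain 46 against 69, and in liver 62 against 62. In MEFs they were 49 with a peak and 69 without. For coding promoters the medians with and without a peak were 79 and 45 in liver, 64 and 59 in brain, 70 and 54 in MEFs, and 60 and 61 in ESCs. Thus in MEFs, brain and liver coding promoters with a peak had more CpGs than those without, whereas marked lincRNA promoters had fewer in MEFs and brain and the same median in liver. The coding medians include the receptor genes, and medians without them were not computed. Without receptor genes, coding LCPs had a peak in 20.9% in brain, 27.6% in MEFs and 20.0% in liver. All coding HCPs had 19.7%, 34.6% and 40.5%, so in brain the coding LCP share was not the lower one.

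**Figure D1:**
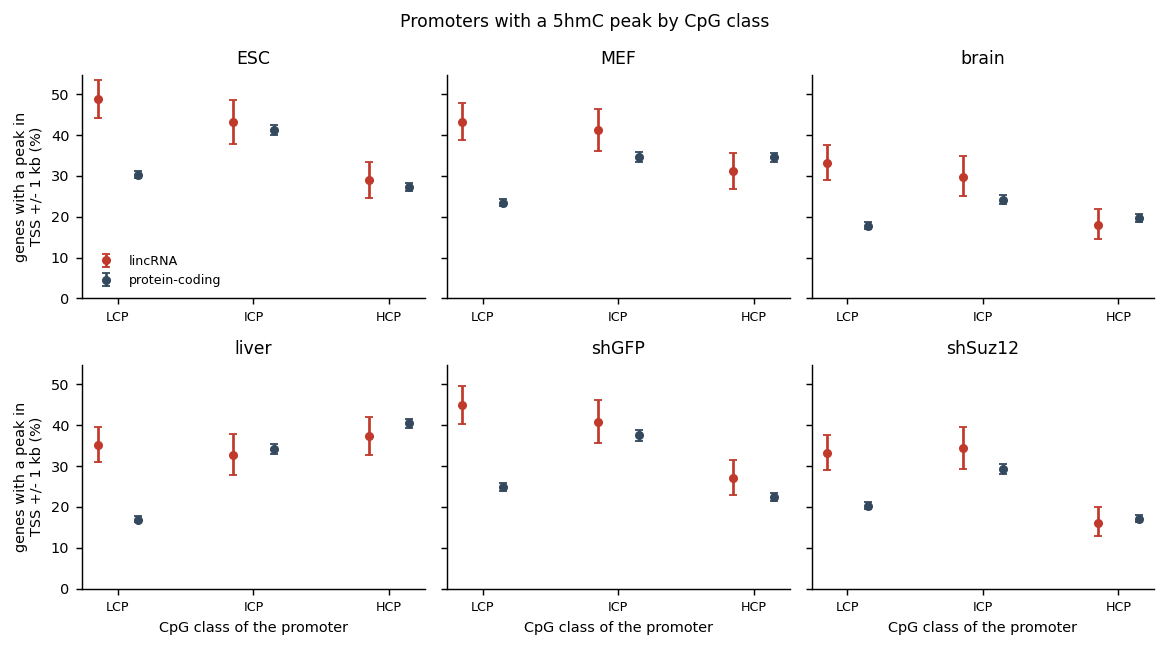
Share of promoters (TSS ± 1 kb, percent, vertical axis) with a 5hmC peak by CpG class (horizontal axis, low, intermediate and high) for lincRNA (red) and protein-coding genes (dark), 1 panel for each library, with exact 95% intervals. In each panel the red point lies well above the dark one at LCPs (48.9% against 30.3% in ESCs), and the points lie close together at HCPs.

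The share with a peak also varied with the distance from a lincRNA TSS to the nearest coding TSS. Within 1 kb of one, 27.1% of the 512 lincRNA promoters had a peak in ESCs, 33.2% in MEFs, 18.8% in brain, 34.0% in liver, 25.8% in shGFP and 17.4% in shSuz12. At 5 to 50 kb (361 lincRNA genes) the shares were 51.8%, 42.1%, 34.9%, 37.4%, 44.3% and 37.1%, in the same order of libraries. Beyond 50 kb (212 genes) they were 44.8%, 48.1%, 33.0%, 32.5%, 44.3% and 32.1%. The rise away from coding TSSs was present in 5 libraries, and in liver the intervals of all distance classes overlapped. Coding promoters were classed by distance to the nearest other coding TSS. At 5 to 50 kb they had a peak in 34.1% in ESCs, 29.3% in MEFs, 19.5% in brain, 29.7% in liver, 27.9% in shGFP and 22.7% in shSuz12, each below the lincRNA interval. At 1 to 5 kb (188 lincRNA genes) this held only in ESCs (49.5% of lincRNA and 41.6% of coding promoters) and shGFP (49.5% and 33.2%). The coding share at this distance lay within the lincRNA interval in MEFs (35.1% and 31.8%), brain (27.1% and 27.1%), liver (37.2% and 40.8%) and shSuz12 (32.4% and 26.6%). Within 1 kb of another coding TSS, coding promoters had a peak in 31.8% in MEFs, 19.1% in brain and 37.4% in liver, all within the lincRNA intervals. In the ESC libraries their shares there, 21.9% in ESCs, 16.7% in shGFP and 12.8% in shSuz12, stayed below the lincRNA intervals, whose lower bounds were 23.3%, 22% and 14.2%.

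**Figure D2:**
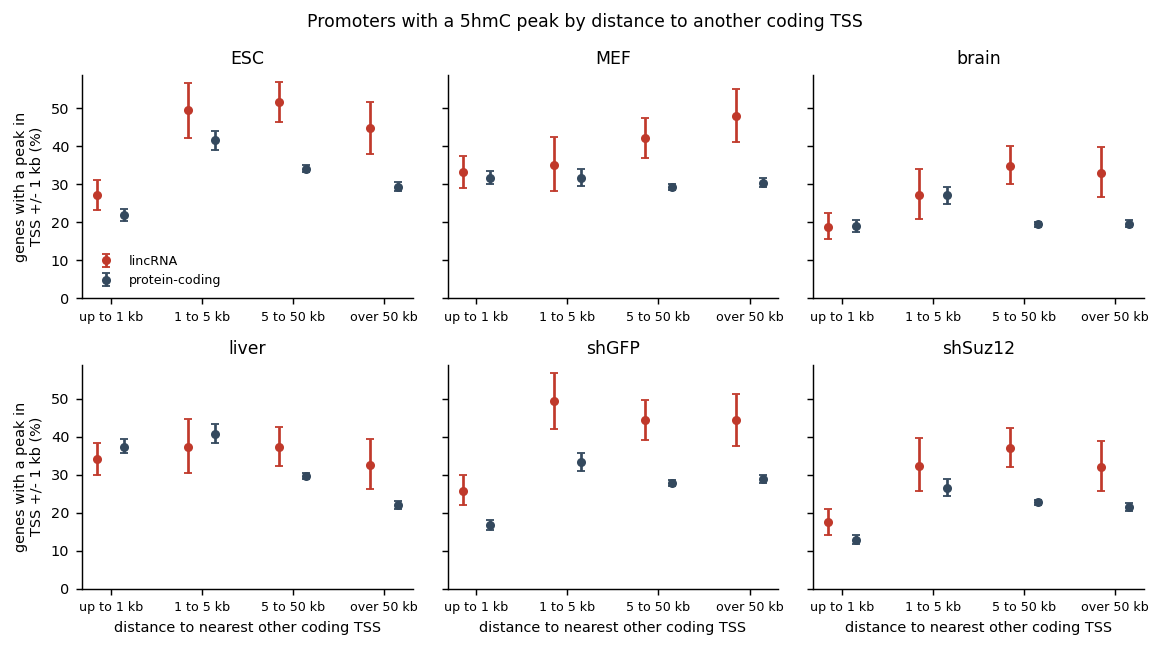
Share of promoters with a 5hmC peak (percent, vertical axis) by the distance from the TSS to the nearest other protein-coding TSS (horizontal axis), for lincRNA (red) and protein-coding genes (dark), with exact 95% intervals and 1 panel for each library. The gene types lie close together at up to 1 kb in MEFs and brain (33.2% and 31.8% in MEFs) and apart at 5 to 50 kb in each panel (51.8% and 34.1% in ESCs).

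Divergent lincRNA promoters, which share their window with a coding TSS on the other strand, had the lowest shares of 3 orientation classes (divergent within 1 kb, other within 1 kb, and over 1 kb). Their interval lay apart from that of the class over 1 kb in each library but liver. It overlapped that of the other promoters within 1 kb in each library but shGFP. A peak was present at 23.3% of the 301 divergent promoters in ESCs, 30.2% in MEFs, 15.3% in brain, 33.6% in liver, 20.9% in shGFP and 15.0% in shSuz12. The 761 lincRNA promoters over 1 kb from any coding TSS had 49.3%, 42.0%, 32.5%, 36.0%, 45.6% and 34.6%. Nearness and CpG class were linked, since 362 of the 440 HCP lincRNA promoters but 149 of the 481 LCP ones lay within 5 kb of a coding TSS. The classes were therefore crossed. In ESCs the 78 HCP lincRNA promoters over 5 kb from a coding TSS had a peak in 44.9% (33.6 to 56.6) against 25.4% of the nearer ones, whereas LCP lincRNA promoters had 46.7% far and 53.7% near. In shGFP HCP lincRNA promoters had 42.3% far and 23.8% near, in brain 21.8% and 17.1%, and in shSuz12 21.8% and 14.9%. In liver they had 37.2% far and 37.3% near, and in MEFs the far share was the lower one, 28.2% against 31.8%. Far and near LCP shares of lincRNAs were 44.3% and 40.9% in MEFs, 36.1% and 26.2% in brain, 34.9% and 35.6% in liver, 42.2% and 51.0% in shGFP and 34.0% and 31.5% in shSuz12. The direction thus differed between libraries at HCPs and LCPs, where far and near intervals overlapped except at HCPs in ESCs and shGFP. At ICPs the far lincRNA share was above the near one in each library. It was 56.4% against 31.7% in ESCs, 52.1% against 31.7% in MEFs and 36.2% against 24.3% in brain. Liver had 36.2% against 29.6%, shGFP 49.7% against 33.3% and shSuz12 44.2% against 25.9%. These ICP intervals overlapped only in brain and liver.

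The excess over coding genes was not confined to the TSS. Read every 50 bp, the TSS itself lay under a peak at 15.4% of lincRNA genes in ESCs, 12.3% in MEFs, 8.88% in brain, 9.35% in liver, 17.1% in shGFP and 6.99% in shSuz12, which was 1.20 to 1.99 times the coding value. Coding genes had a deep trough at the TSS in liver and brain, where coverage was 0.324 and 0.409 times that 1 to 2 kb away. The lincRNA trough was shallower there, at 0.476 and 0.584 times. The values for lincRNA and coding genes were 0.751 and 0.555 in MEFs and 0.852 and 0.799 in ESCs. In shGFP neither type had a trough (1.24 and 1.14), and in shSuz12 the lincRNA trough was the deeper one (0.808 and 0.912). At 4 to 5 kb upstream of the TSS lincRNA genes still had 1.49 times the coding coverage in ESCs, 1.86 in MEFs, 2.15 in brain, 1.70 in liver, 1.53 in shGFP and 1.51 in shSuz12. At 1 to 2 kb downstream lincRNA genes were also above coding genes, with 18.4% against 16.5% in ESCs, 15.3% against 14.5% in MEFs, 15.5% against 11.8% in brain, 19.9% against 17.9% in liver, 13.7% against 11.1% in shGFP and 9.01% against 6.96% in shSuz12. At 4 to 5 kb downstream, inside the gene for most, the ratios were 1.06, 1.14, 0.994, 0.940, 1.12 and 1.07. So lincRNA coverage stood above that of coding genes upstream, at the TSS and 1 to 2 kb downstream, and came close to it at 4 to 5 kb downstream.

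Coding genes overlapped this upstream side more often at lincRNAs. The point 4500 bp upstream of the TSS lay inside another coding gene for 63.6% of lincRNA genes (809) and for 25.6% of coding genes. Over the 234 lincRNA genes with no coding gene within 5 kb, set beside the 10898 coding genes of which the same holds for other coding genes, the upstream coverage was 2.02 to 2.27 times the coding value, from 15.7% against 6.93% in ESCs to 9.91% against 4.91% in liver. Downstream the ratio in these genes was 0.816 in liver and 1.10 to 1.50 in the others.

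**Figure D3:**
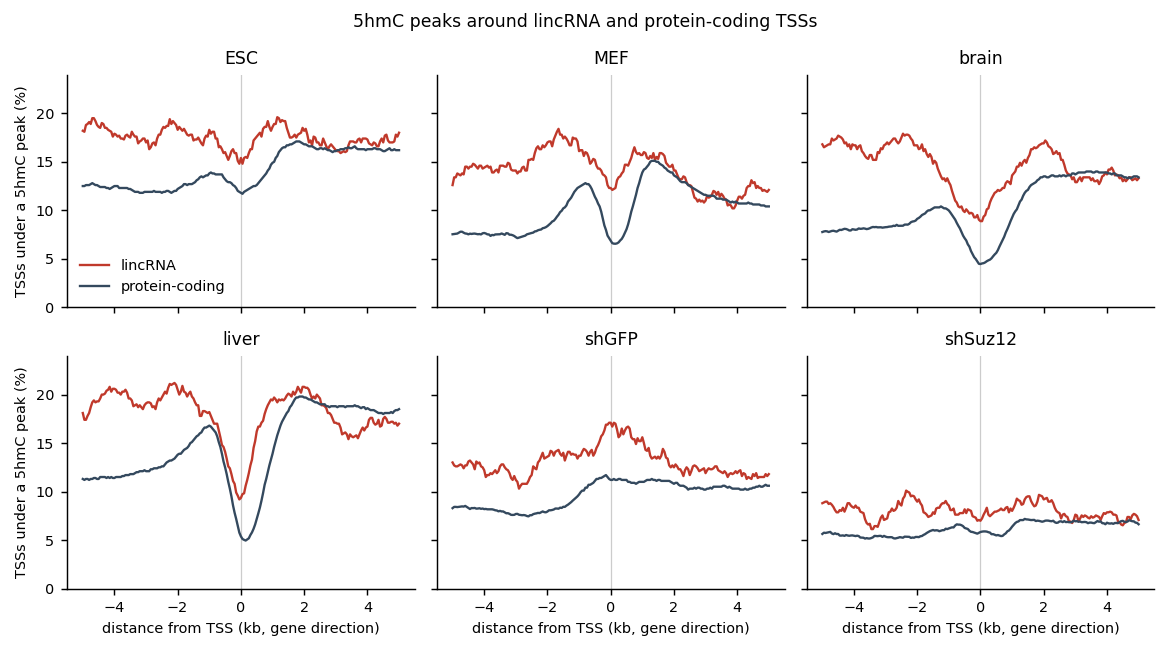
Share of TSSs (percent, vertical axis) under a 5hmC peak at each distance from the TSS (kb, horizontal axis, negative upstream in the direction of the gene) for lincRNA (red) and protein-coding genes (dark), 1 panel for each library. The red line lies above the dark one upstream in all panels and comes close to it at 4 to 5 kb downstream, and both dip at the TSS in brain and liver (8.88% and 9.35% for lincRNAs).

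Over the whole gene span, and all span lengths together, lincRNA genes did not have the excess seen at promoters. A peak overlapped the span of 66.2% of lincRNA genes in ESCs (63.5 to 68.8), 62.5% in MEFs, 56.2% in brain, 55% in liver, 62.3% in shGFP and 59.2% in shSuz12. Coding genes had 67.8%, 61%, 60.7%, 57.9%, 63.4% and 63.0%, and all annotated genes had 50.2%, 44.8%, 44.0%, 41.9%, 45.9% and 45.0%. Since a longer span has more room for a peak, the bp covered were compared too. Peaks lay over 11.0% of lincRNA span bp in ESCs against 11.7% of coding span bp, 11.6% against 11.9% in MEFs, 7.77% against 7.50% in shGFP and 5.18% against 5.29% in shSuz12. The adult tissues differed more, with 9.98% against 14% in brain and 9.44% against 12.9% in liver, ratios of 0.715 and 0.731. The interval of a share of genes has no counterpart here, because neighbouring bp are not independent.

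The comparison depended on the length of the span. For spans under 3 kb, 42.8% of 229 lincRNA genes had a peak in ESCs against 23.6% of coding genes, and 40.6% against 16.6% in liver. At 3 to 10 kb (482 lincRNA genes) they were 56.4% against 47.1% in MEFs and 61.8% against 55.6% in shGFP. In the other libraries the coding share at 3 to 10 kb lay within the lincRNA interval. At 10 to 30 kb the shares were 77.8% against 79.1% in ESCs and 61.7% against 68.5% in liver. The bp covered in MEFs were higher for lincRNAs at both lengths, 13.8% against 11.1% and 12.3% against 10.6%. In the other libraries they were lower or, in brain at 3 to 10 kb, the same (15.9%). For spans of 30 kb or more, 78.5% of 246 lincRNA genes had a peak in ESCs against 86.7%, and 61.8% against 76.3% in liver. The bp covered in brain and liver were lower for lincRNAs in these long spans, 8.68% against 13.7% and 7.03% against 11.6%, and higher for spans under 3 kb, 14.6% against 10.5% and 22.6% against 13%. Coding genes included 2923 with 1 exon block, of which 17.8% had a peak in the span in ESCs, and lincRNA genes included 3.

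Most lincRNA genes with a promoter peak also had a peak in the rest of the span. Of the 1249 lincRNA genes that reach beyond the promoter window, 407 (32.6%) had both in ESCs, 97 (7.77%) had only the promoter peak, 381 (30.5%) only one in the rest, and 364 (29.1%) neither. A promoter peak without one in the rest of the gene was more frequent at lincRNAs than at coding genes in each library, 9.77% against 3.81% in MEFs, 5.20% against 2.20% in brain and 5.44% against 2.64% in liver, while coding spans were longer. Over promoter and span together, 115 lincRNA genes (9.03%) had no peak in any of the 6 lists, against 20.0% of coding and 32.6% of all annotated genes.

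Along the body the 2 gene types had different shapes. The 852 lincRNA spans of at least 5 kb were cut in 10 equal segments from 5′ to 3′. In ESCs the mean coverage of lincRNA genes was 16.0% in the first segment and 17.5% in the last, whereas coding genes went from 13.9% to 23.7%. In brain the values were 12.2% and 13.8% for lincRNAs and 9.88% and 19.9% for coding genes, and in liver 13.4% and 16.1% against 13.8% and 23.5%. The climb towards the 3′ end of coding genes was thus weaker at lincRNAs in these libraries, and in MEFs neither type climbed (13.6% and 12.7% for lincRNAs). In shGFP lincRNA coverage was higher in the first segment (14.6%) than in the last (12.3%), and coding coverage was lower (10.2% and 15.2%). Exons of lincRNA genes were covered more than their introns, 19.7% against 10.1% in ESCs, 17% against 8.86% in liver, 15.2% against 9.60% in brain and 14.1% against 11.5% in MEFs. The exon-to-intron ratio was lower at lincRNAs than at coding genes in the ESC libraries (1.95 against 2.56 in ESCs, 2.16 against 2.66 in shGFP, 1.81 against 2.58 in shSuz12) and close to it in MEFs, brain and liver (1.23 against 1.18, 1.58 against 1.65, 1.91 against 1.85).

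**Figure D4:**
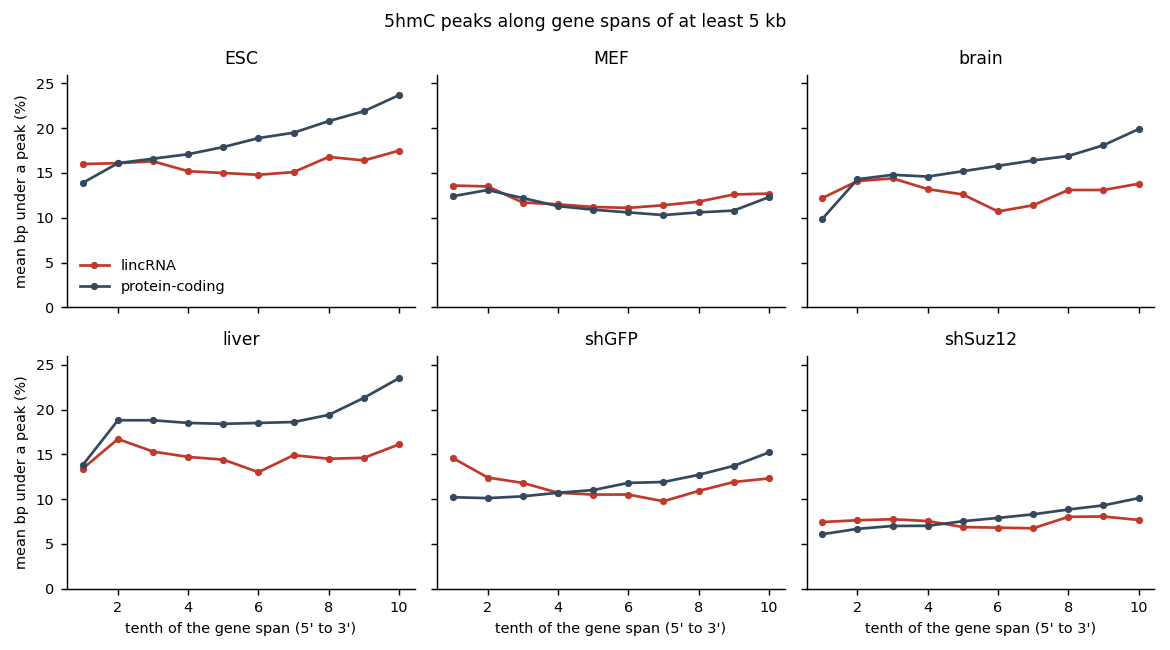
Mean percent of bp under a 5hmC peak (vertical axis) in each of 10 equal segments of the gene span from 5′ to 3′ (horizontal axis) for lincRNA (red) and protein-coding genes (dark) with spans of at least 5 kb, 1 panel for each library. The dark line climbs to the last segment in ESCs, brain and liver (23.7%, 19.9% and 23.5%) and the red line stays flatter (17.5%, 13.8% and 16.1%).

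The shSuz12 library was set beside shGFP to see which lincRNA promoters kept a peak when Suz12 was targeted. Among the 479 lincRNA promoters marked in shGFP, 210 were without a peak in shSuz12, which is 43.8% (39.3 to 48.4), against 44.1% of coding and 43.3% of all promoters. The share at lincRNAs was therefore at the background. In the other direction, 83 of the 794 lincRNA promoters without a peak in shGFP had one in shSuz12, 10.5% (8.41 to 12.8) against 8.57% and 7.94%. As a measure of how 2 lists of ESCs differ without the Suz12 hairpin, 130 of the 514 lincRNA promoters of untransfected ESCs had no peak in shGFP, 25.3% against 32.0% of coding and 32.6% of all promoters. In the other direction, 95 of the 759 lincRNA promoters without a peak in ESCs had one in shGFP, 12.5% (10.2 to 15.1). Coding and all promoters had 7.96% and 6.52%. A higher share of gains at lincRNAs was thus present between these lists too. By CpG class, the peak was absent in shSuz12 at 56.3% of the HCP lincRNA promoters of shGFP (46.9 to 65.4), 44.0% of the LCP and 33.3% of the ICP ones (25.7 to 41.7). Coding promoters had 52.9%, 39.8% and 41.5%.

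In bp, the shSuz12 list covered lincRNA promoters 0.504 times as far as the shGFP list, against 0.540 times for coding promoters, and lincRNA spans 0.667 times against 0.706 times. Of the 562 lincRNA promoters with a peak in either library, 434 (77.2%) had fewer bp covered in shSuz12 and 126 had more, against 72.6% with fewer among coding and 71.0% among all annotated promoters. The whole shSuz12 list covered 83.5 Mb and that of shGFP 121 Mb, although it held more peaks (138705 against 132996), and it reached to lower scores. With a score of at least 80 in both, 77.7% of the lincRNA promoters of shGFP had no peak in shSuz12, against 78.7% of coding promoters, and with the 50% highest-scoring peaks of each list the shares were 56.6% and 56.1%. The size of the loss thus depended on the lists' scores while the lincRNA and coding shares stayed together. The part of the lower scores in it was not tested, and with 1 library of each there was no replicate check.

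The largest losses were at 5 lincRNA promoters picked for this fall among the 345 that fell and also had a peak in untransfected ESCs, so their values are a description. The promoter of 1500012K07Rik (chr7:82453588-82476305, plus strand), whose TSS is 560 bp from that of Sv2b (a synaptic vesicle protein), had 1627 bp covered in ESCs, 543 in MEFs, 1940 in shGFP and none in brain, liver or shSuz12. In shGFP this was a single peak of 2206 bp, across the TSS and up to 1265 bp after it, with a score of 311. At Gm16702, 44955 bp from the TSS of T (brachyury, a regulator of mesoderm), the promoter coverage was 1662 bp in ESCs, 1898 bp in shGFP and 0 in the other libraries. Both were thus ESC promoters that were bare in shSuz12. Gm11529, divergent from Skap1 at 46 bp, went from 1741 to 0 bp, and 2610020F03Rik went from 1735 to 0 bp but also had 1722 bp in liver. Gm17470, 5744 bp from Icam5, went from 2000 to 239 bp. The 5 largest of the 44 rises at promoters without a peak in ESCs were 592 to 763 bp, at Gm13429, 2610035F20Rik (1803 bp from Zic2, a zinc finger regulator of neural development), Gm16386, Gm17388 and Gm16890, and only that of Gm13429 lay under a peak with a score of at least 80.

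Promoters with a peak in 1 of the 4 cell types are represented by 5 examples, again chosen for that pattern. In ESCs, Gm16737 had all 2000 bp of its promoter covered, by a peak of 3445 bp with a score of 1467, and 0 bp in MEFs, brain and liver. shGFP covered it fully as well and shSuz12 over 1275 bp, in separate peaks with scores of 59.96 and 67.11, so the 3 ESC lists had it and the others did not. In MEFs, Gm805 had 1347 bp covered, with a peak of 1116 bp across the TSS, and of the other libraries only shGFP had promoter coverage (497 bp). In brain, Gm12541 had 1677 bp covered by a peak with a score of 80.6, with 0 bp in the other 5 libraries. C130080G10Rik, divergent from the heart actin gene Actc1, had 1530 bp in brain under peaks that all scored below 80. Gm17557 had a liver peak too, with 1184 bp in liver but also 1211 bp in shGFP, since the rule looked at the 4 cell types only.

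The most covered lincRNA promoters over all 6 lists were those of G530011O06Rik, Gm10425, Gm16575, Gm17328 and 4933416M07Rik. G530011O06Rik was the only lincRNA gene whose promoter window was covered over all 2000 bp in each library. It lies 233 kb from the end of chromosome X in the reference, and its span was covered over 56.8% to 98.7%. Chromosome X had few peaks, 22 in the brain list, of which 10 lay in the last 300 kb, 104 in that of liver, also with 10 there, and at most 757 in any list (MEFs). Of the 41 lincRNA promoters on chromosome X, 1 to 4 had a peak in each library. That is 2.44% to 9.76%, above the coding share on X in each library (0.215% to 5.90%), but so few genes give a wide counting error. The other heavily covered promoters were autosomal. Gm10425 had 1476 to 2000 bp covered, Gm16575 1342 to 2000 bp, Gm17328 1551 to 1962 bp and 4933416M07Rik 1386 to 1937 bp in each of the 6 libraries. By mean coverage of a span of at least 2 kb the leading genes were G530011O06Rik, 2310043M15Rik (54.3% to 99.2% of the span), Gm17550 (45.1% to 92.7%), Gm10151 (48.5% to 98.0%) and Gm16767 (37.8% to 92.6%).

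The best-known lincRNA genes were looked up by name. Of 48 well-known long non-coding RNAs on a list chosen by symbol, 32 were in the annotation and 22 had the type lincRNA. H19, Malat1 and Neat1 had another type and are not members. A promoter peak was present at 5 of these 22 in ESCs, 3 in MEFs, 2 in brain, 4 in liver, 6 in shGFP and 5 in shSuz12, which is 22.7%, 13.6%, 9.09%, 18.2%, 27.3% and 22.7%. All annotated promoters had 29.0%, 26.7%, 19.2%, 25.0%, 24.2% and 19.7%, so the list was below this background in the 4 cell types and above it in shGFP and shSuz12. A span peak was present at 13, 14, 11, 14, 13 and 14 of them. So few genes give a wide counting error, no test was made of the list, and nothing is read from its shares.

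Xist (chrX:100655714-100678556, minus strand), the RNA that coats the inactive X chromosome, had promoter coverage of 1581 bp in ESCs and 1415 bp in shGFP and 0 bp in MEFs, brain, liver and shSuz12. In ESCs it came from a peak of 1057 bp across the TSS with a score of 154 and another of 1774 bp just inside the gene with a score of 477. In shSuz12 368 bp of the span remained. The antisense gene Tsix, which represses Xist, runs over the whole of it. Its span had 2831 bp covered in ESCs, 2536 bp in shGFP, 368 bp in shSuz12 and none in MEFs, brain or liver. These are not separate observations, since part of the bp belong to both genes. The few peaks on the rest of chromosome X in brain and liver stand beside their zeros.

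Of 5 imprinted lincRNA genes, a span peak was present at 4 or 5 in each library and a promoter peak at 0 to 2. Long spans often had one in any case. Of all lincRNA spans of 30 kb or more, 61.8% to 86.2% had one in a library. At 10 to 30 kb, the length class of Mirg (14475 bp) and Nespas (14200 bp), 61.7% to 77.8% did. No test was made of these 5 imprinted genes. Meg3, Rian and Mirg are neighbours in the imprinted cluster on chromosome 12 and are transcribed from the maternal copy. None of the 6 lists covered the Meg3 promoter, while its span (chr12:110779211-110809936) was covered over 22.6% in ESCs, 36.3% in MEFs, 5.33% in brain, 3.27% in liver, 25.3% in shGFP and 17.9% in shSuz12. Rian had 19.8%, 18.8%, 0%, 1.24%, 16.6% and 8.13% of its span covered in the same order. Mirg had 31.8%, 35.7%, 6.47%, 8.74%, 28.6% and 26.7%. The only promoter coverage of Rian and Mirg was 41 bp in ESCs and 556 bp in shSuz12, respectively. Each of the 3 spans was thus covered further in ESCs, MEFs and shGFP than in brain and liver, also with a lowest score of 80 in all lists, but as neighbours they are not independent. In shSuz12 coverage depended on the score, and with a score of at least 80 it was 753 bp of Rian and 700 bp of Mirg, beside 718 and 1265 bp in liver. Airn, which is transcribed across Igf2r and silences it on the paternal copy, had a different order, with 30.9% of the span in MEFs, 18.7% in liver, 14.6% in ESCs, 13.2% in brain, 6.22% in shGFP and 4.77% in shSuz12. With a score of at least 80 liver (22175 bp) came above MEFs (19950 bp). The Airn promoter had 607 bp covered in shGFP, 306 bp in shSuz12 and none elsewhere. Nespas, antisense in the Gnas locus, had 16.5% in MEFs, 8.72% in ESCs, 8.52% in brain and 0% in liver, and of these only the ESC coverage (1238 bp) lay under peaks with a score of at least 80.

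Of 6 hosts of small nucleolar RNAs, which carry these RNAs in their introns, 1 had a promoter peak in ESCs, 2 in MEFs, 1 in liver, 1 in shSuz12 and 0 in brain and shGFP, too few genes to be read against the 19.2% to 29.0% of all annotated promoters. Gas5 and Snhg5 had no peak in the promoter or the span in any library. Snhg1 had 1328 bp of its span covered in liver and none elsewhere, and Snhg7 had 1794 bp in liver, 552 bp in MEFs and 596 bp in shSuz12, with 650 bp of its promoter in MEFs. Snhg12 had 335 bp of its promoter covered in shSuz12 as its only coverage, and Snhg4 had promoter coverage of 760 bp in ESCs, 660 bp in MEFs and 1129 bp in liver. Among those with a general role, Tug1 was covered in liver alone, over 349 bp of the promoter and 867 bp of the span. 6720401G13Rik (Firre), on chromosome X, had 554 bp of a 79578-bp span covered in MEFs and no other peak.

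The long lincRNA genes were covered to different degrees. Pvt1, downstream of Myc, spans 340110 bp (chr15:61869542-62209651) and had 20.0% covered in ESCs, 20.7% in MEFs, 18.2% in brain, 22.1% in liver, 13.6% in shGFP and 9.63% in shSuz12. The 4 cell types were similar only with the lists as deposited, since with a score of at least 80 liver had 75319 bp covered, ESCs 68027 bp, MEFs 45669 bp and brain 16936 bp. Its promoter had a different order, with 1640 bp in liver, 717 bp in ESCs, 122 bp in brain and 0 bp in MEFs, and 615 bp in shGFP and 469 bp in shSuz12. Dleu2, host of a pair of microRNAs, had 24.5% of its span covered in liver, 13.4% in brain, 8.45% in MEFs and 1.04% in ESCs. Sox2ot, which contains Sox2 in an intron, had 9.41% in brain, 8.15% in MEFs, 7.22% in ESCs and 1.4% in liver. Rmst, a neural transcript, had 9.0% in brain, 6.42% in MEFs, 4.70% in liver and 0% in ESCs. Neither order held with a score of at least 80 in all lists. Sox2ot coverage then ran from 41767 bp (ESCs) through 16261 bp (MEFs) and 10896 bp (brain) to 8067 bp (liver), and Rmst had 3920 bp in liver, 2069 bp in MEFs and 0 bp in brain. Miat, also neural, had 42.9% in ESCs, 18.2% in brain, 17.7% in MEFs and 4.48% in liver. The ESC value of Miat and the liver value of Dleu2 were the highest of the 4 cell types under both settings. Six3os1, beside Six3, a regulator of forebrain and eye development, had 24.5% in shGFP, 11.5% in ESCs and 0% in liver and shSuz12. These neural genes thus did not share an order of libraries.

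**Figure D5:**
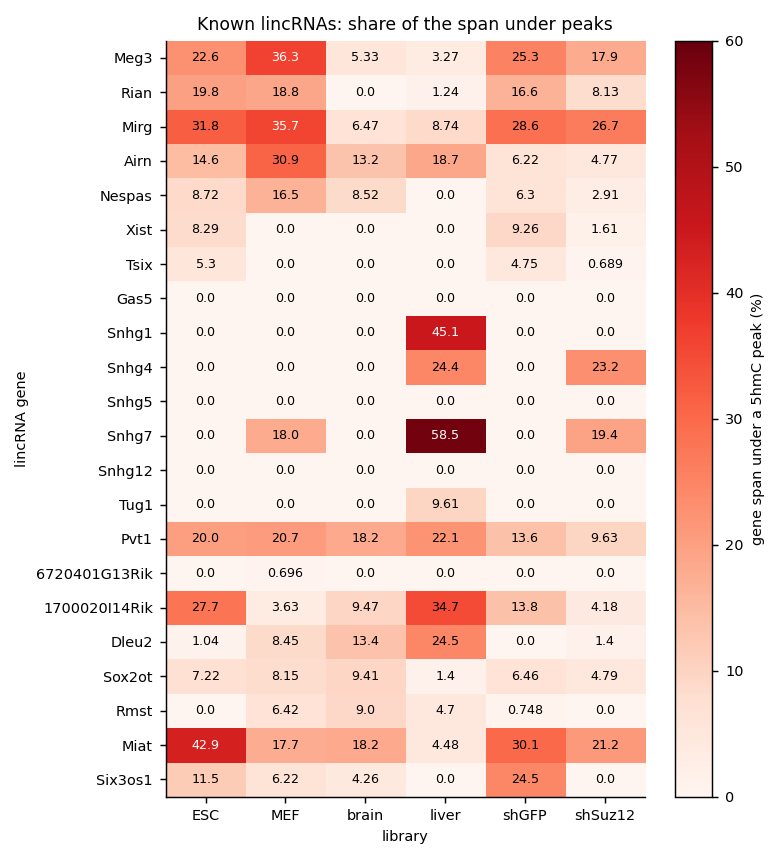
Percent of the gene span under a 5hmC peak (colour scale and number in each cell) for the 22 well-known lincRNA genes (rows) in the 6 libraries (columns). Meg3, Rian and Mirg are darker in ESCs, MEFs and shGFP than in brain and liver (Meg3 22.6% in ESCs and 3.27% in liver), Pvt1 has 18.2% to 22.1% in the 4 cell types with the lists as deposited, which reach to different scores, and Gas5 and Snhg5 are at 0 throughout.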

How the data were processed

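The study mapped the reads of each GLIB-Seq library to mm9, allowing 2 mismatches and only unique hits, and removed redundant reads before peak calling (per the submitters' processing notes, CASAVA 1.8, Bowtie 0.12.7 and MACS 1.4.1). The control and threshold of each list are not given in the sources used here. The authors deposited 1 peak list for each library, with a score per peak from MACS, used here only to rank or filter peaks. The lists hold no read counts, so depth is unknown.

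The 6 lists held 130408 to 217025 nuclear peaks. Overlaps were computed with Python 3.11.15, numpy 2.4.6, pandas 2.3.3, scipy 1.17.1, matplotlib 3.10.9 and pysam 0.24.0 on GENCODE M1. A promoter is the TSS (the 5′ end of the gene) ± 1 kb and the span is the whole gene. Shares have exact (Clopper-Pearson) 95% intervals. With 1 library per condition no test between conditions was made. The code was tested on simulated data.

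The gene class and all lists were chosen with earlier results of these data known. Named genes were known lincRNAs chosen by symbol, the 5 lincRNAs with the most promoter bp covered over the 6 lists, the 5 with the highest mean span coverage (spans of at least 2 kb), the 5 largest falls (with a peak in ESCs) and 5 largest rises (without one) from shGFP to shSuz12, and the 3 widest promoters found in only 1 cell type. Not all genes that this rule chose are reported here. The alternatives were a score of at least 80, the 50% highest scores, an overlap of at least 200 bp, promoters of 500 bp or 2 kb on each side, lincRNAs over 5 kb from coding genes, and leaving out chromosome 8. Autosomes only, and coding genes without receptor genes, were added after the data had been seen.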

Additional observations from a re-analysis of the deposited data

How the results depend on the processing

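Each value was recomputed under the alternatives, 98 values in all, of which 50 stayed within the counting interval or did not change, 43 moved and 5 changed direction. The cause of these moves was not tested. The lincRNA promoter share stayed above the coding share in all libraries under all alternatives except in liver for lincRNAs over 5 kb from coding genes. With a score of at least 80 the promoter ratio was 1.57 in shSuz12, 1.79 in brain and 1.47 in MEFs, and the ratio of span bp covered was 1.03 in shSuz12, 1.06 in shGFP, 0.643 in brain and 1.03 in MEFs, which put MEFs and shSuz12 above 1. With the 50% highest scores the promoter ratio was 1.54 in brain, and the span ratio was 0.685 in liver, 0.980 in shSuz12, 1.06 in shGFP, 0.689 in brain, 1.01 in MEFs and 0.922 in ESCs, with MEFs again above 1. Promoters of 500 bp on each side gave a promoter ratio of 1.47 in liver, 1.60 in brain and 1.47 in MEFs. The lincRNAs over 5 kb from coding genes, against all coding genes, had a promoter ratio of 0.989 in liver, 1.54 in shSuz12, 1.58 in shGFP and 1.42 in MEFs, below 1 in liver, and a span ratio of 0.644 in liver, 0.975 in shSuz12, 1.07 in shGFP, 0.752 in brain, 1.16 in MEFs and 0.945 in ESCs, above 1 in MEFs.

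Without chromosome 8 the span ratio was 0.749 in liver, 0.975 in shSuz12, 0.730 in brain, 0.981 in MEFs and 0.937 in ESCs. On autosomes only it was 0.721 in liver, 0.966 in shSuz12, 1.02 in shGFP, 0.705 in brain, 0.965 in MEFs and 0.923 in ESCs, and without receptor genes among the coding genes it was 0.727 in liver, 0.974 in shSuz12, 1.03 in shGFP, 0.711 in brain, 0.974 in MEFs and 0.931 in ESCs. Both of these were chosen after seeing the data. The span ratio has no counting interval, so each change in it at 3 digits is given. The share of lincRNA promoters of shGFP without a peak in shSuz12, 43.8%, became 77.7% with a score of at least 80, 56.6% with the 50% highest scores, 51.0% with promoters of 500 bp and 32.7% with promoters of 2 kb on each side.

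No paired analysis was possible because there was 1 library per condition, and there was no replicate to leave out. The depth of the libraries is unknown and their thresholds differ, so a bare promoter in a list means no peak past that list's threshold, and thresholds and conditions cannot be told apart.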
